A study of Homo sapiens with 8 samples.

Results

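The G1 cyclins, their kinases and the inhibitors of these kinases were examined in RNA-seq of cells that did or did not express Siglec-XII. The set holds 10 genes, the cyclins CCND1, CCND2, CCND3 and CCNE1, the kinases CDK4 and CDK6, the inhibitors CDKN1B, CDKN2A and CDKN2B, and RB1. Entries were matched to members by symbol alone, and each member stood on a single entry of a deposited table of 63816 gene entries. The members were chosen with earlier results of these data known, among them a higher CCND1 with Siglec-XII. Counts over them are thus no independent support for a change in this set. All samples were labelled Caco-2, an established line grown from a human colorectal cancer. Cells received the expression vector pcDNA3.1 either empty (4 samples, the control) or carrying full-length SIGLEC12 (4 samples, Siglec-XII), under selection with G418 in both groups. The series describes stable clones, and its text and methods leave it unclear whether the 4 samples of a group were separate cultures, so the p-values below measure the spread between these libraries, which may be technical. Any difference between the clones that Siglec-XII did not cause cannot be told apart from the effect of Siglec-XII.

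A cell decides in G1 whether to copy its DNA. Growth signals, among them those carried by ERK, raise the D-type cyclins, which bind and activate CDK4 and CDK6. These kinases phosphorylate the retinoblastoma protein, the product of RB1, and so release E2F factors, which switch on CCNE1 and the genes for DNA replication. INK4 proteins, among them p16 from CDKN2A and p15 from CDKN2B, bind CDK4 and CDK6 and keep the D-type cyclins away, while p27, the product of CDKN1B, inhibits the kinase CDK2 with cyclin E. In colorectal cancer this switch is well known as an end point of Wnt and RAS signalling, and CDK4 and CDK6 are drug targets in other carcinomas.

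The transfected gene followed the labels. SIGLEC12 lay at 0.122, 0.0853, 0.0705 and 0.0399 TPM (a level scaled for transcript length and to the same total in every sample) in the 4 empty vector samples and at 1635, 1582, 1734 and 1716 TPM in the 4 Siglec-XII samples. On the log2(TPM + 1) scale of the deposited table the means were 0.11 ± 0.05 and 10.70 ± 0.06 (SD, n = 4 each), a difference of 10.59 (two-sided exact permutation test, p = 0.0286, the smallest that 70 labellings allow). The labelled cell type was checked by its markers. Of 18 marker genes of colon epithelium and of Caco-2, 5 reached 1 TPM in at least 4 samples, namely CDX1, CDX2, EPCAM, KRT8 and KRT18. Over all samples CDX1 averaged 147 TPM, CDX2 40.6 TPM, EPCAM 553 TPM, KRT8 4260 TPM and KRT18 3183 TPM. KRT20, FABP1 and PHGR1 were listed at 0 in every sample, and HNF4A stayed at or below 0.174 TPM, CDH17 at or below 0.333 TPM and VIL1 at or below 1.30 TPM. In contrast, 15 of 19 trophoblast markers passed the same limit. Group means in empty vector and Siglec-XII samples were 402 and 359 TPM for GATA3 and 345 and 345 TPM for HSD3B1. Those of VGLL1 were 180.1 and 175 TPM. CGA, PSG1, ERVW-1, ERVFRD-1, PGF, HLA-G and CYP19A1 passed at low levels, with means over all samples of 0.785 to 3.59 TPM. HLA-G had 8 entries, and only the entry with the highest mean was used, so its value may be a part of the gene's level. GCM1, CGB3, CGB5 and LEP did not pass. Summed, the trophoblast markers spanned 1402 to 1596 TPM in empty vector samples and 1487 to 1559 TPM in Siglec-XII samples, in overlapping groups. The colon and Caco-2 markers, whose sum is mostly KRT8 and KRT18, did not overlap, at 7160 to 8137 TPM in empty vector and 8642 to 8957 TPM in Siglec-XII samples. All 5 tested markers of that list had a positive difference, against 68.1% of all tested entries. Of these 5, 4 were higher with an unadjusted p under 0.05, against 13.9% of all entries, and none passed the adjusted threshold in limma. LIN28A, the single gene past the limit in the list for pluripotent and germ cells, was at 145 and 160.2 TPM, and the sum of that list did not overlap either (141.5 to 148.5 and 155.8 to 168.4 TPM). At the same unadjusted limit in limma, 2 of 15 tested trophoblast markers (GATA2 and KRT7) passed upward. So did 1 of 5 tested fibroblast markers (COL1A1) and LIN28A, and no tested marker passed downward. The part of these markers in the differences of the members was not tested. The fibroblast list had 5 of 8 genes past the limit, the leukocyte list 2 of 6, the hepatocyte list 0 of 5, and the list for pluripotent and germ cells 1 of 7. The levels described here are thus those of the libraries labelled Caco-2, which lacked most defining transcripts of that line, and the part of this in the levels of the members was not tested. The table holds no read counts, so the depth behind each value is unknown; the mitochondrial entries took 6.67% to 11.2% of TPM across samples.

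CDKN2B was the only one of the 10 genes that rose with Siglec-XII past an adjusted p of 0.05. Its level went from 3.31 ± 0.0461 to 5.98 ± 0.918 TPM (SD, n = 4 each). In RNA from whole cultures, more RNA per cell and a larger share of cells with the transcript cannot be told apart. The second INK4 gene, CDKN2A, next to it on chromosome 9, had means of 27.5 and 24.5 TPM in overlapping groups. CDK6, a kinase that drives the switch, and RB1, whose product holds it back, were higher in all 4 Siglec-XII samples than in any empty vector sample, and CCND1 had the second largest difference, without passing the adjusted threshold.

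All 10 genes reached 1 TPM in at least 4 samples and were among the 15590 entries tested with limma. With an adjusted p under 0.05, 1 of the 10 was called, against 0.648% of all tested entries (101 entries), and it was higher, against 0.34% of all entries called higher. At an unadjusted p under 0.05, 5 of 10 were higher (CCND1, CDK4, CDK6, CDKN2B and RB1), against 13.9% of all entries, and 0 of 10 were lower, against 2.61%. In 3 of 10 (CDK6, CDKN2B and RB1) every Siglec-XII sample lay above every empty vector sample, against 9.17% of all entries, and in 0 of 10 every Siglec-XII sample lay below, against 1.68%. Differences leaned upward in the table as a whole, since 68.1% of tested entries were higher with Siglec-XII and their median difference was 0.07 on the log2 scale. Of the members, 8 had a positive difference and 2 a negative one, the median difference was 0.18, and 7 lay above the median of all entries. Both the lean and the counts depended on the scaling. After quantile normalization, with equal upper quartiles and after removal of the length trend, the median of all entries was 0.0095, 0.0115 and 0.0034, and the members with an unadjusted p under 0.05 were CCND1, CDK6 and CDKN2B upward and CDKN2A downward, without CDK4 and RB1.

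**Figure D1:**
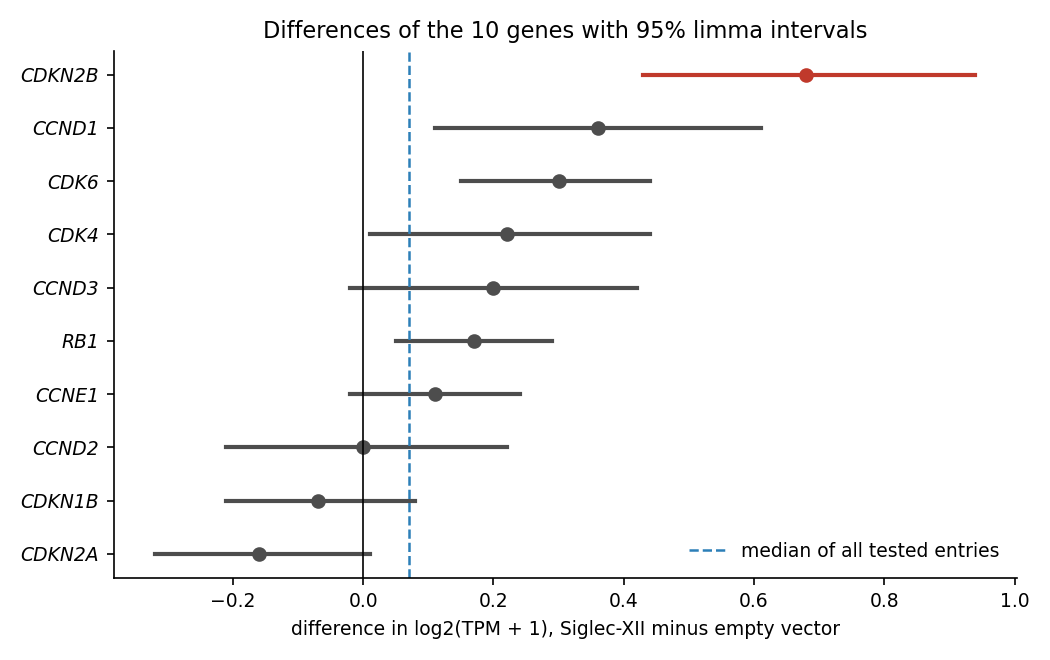
Difference in mean log2(TPM + 1), Siglec-XII minus empty vector (x axis), for each of the 10 genes (y axis), with points for the limma estimate and bars for its 95% interval (n = 4 samples per group). CDKN2B, at 0.68, is the single gene past an adjusted p of 0.05 (red), and the dashed line marks the median of all tested entries, 0.07.

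CCND1, cyclin D1, is the D-type cyclin most often linked to ERK signalling. It was measured at 54.2, 74.7, 58.9 and 52.2 TPM in the empty vector samples and at 84.3, 80.2, 69.3 and 72.8 TPM in the Siglec-XII samples. Without empty vector replicate 2 the groups would not have overlapped, since that sample stood above 2 of the Siglec-XII samples and the other 3 controls stood below all of them. The means were 60.0 ± 10.2 and 76.7 ± 6.82 TPM, a log2 difference of 0.36 (limma, SE 0.11, 95% interval 0.11 to 0.61, adjusted p = 0.172). Leaving out empty vector replicate 2 gave a difference of 0.47 with an adjusted p of 0.0413 in limma, and CCND1 was then the only one of the 10 genes to be called.

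The same control sample was the highest of its group for the other D-type cyclins. CCND3, cyclin D3, had 27.4, 36.2, 29.2 and 28.1 TPM in empty vector samples and 31.1, 34.7, 34.1 and 38.7 TPM in Siglec-XII samples. The groups overlapped only through replicate 2 of the empty vector, and the log2 difference of 0.20 did not pass (limma, SE 0.10, 95% interval -0.02 to 0.42, adjusted p = 0.354). CCND2, cyclin D2, was the least abundant of the family, at 8.93, 10.6, 8.47 and 8.403 TPM against 9.29, 9.53, 7.95 and 9.58 TPM. Its group means were equal at 9.09 TPM, and the 95% interval of the log2 difference ran from -0.21 to 0.22 (limma, SE 0.10, adjusted p = 0.995). The sign of this difference turned negative under several of the scalings tried.

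TPM is scaled for length, so the family can also be read as a sum. The D-type cyclins together came to 99.3 ± 15.2 TPM in empty vector samples and 120.4 ± 6.20 TPM in Siglec-XII samples, in overlapping groups. CCND1 supplied 60.3 ± 1.17% of that sum in controls and 63.6 ± 3.22% with Siglec-XII, again with overlap. CCND2 supplied 9.20 ± 0.571% and 7.54 ± 0.326%, and here every Siglec-XII sample lay below every control. A single scaling factor per sample leaves the ratio of CCND1 to CCND3 within a sample nearly unchanged. This ratio differed by 0.16 on the log2 scale between the groups (two-sided exact permutation test, p = 0.257). The difference fell to 0.0663 without Siglec-XII replicate 1 and was 0.239 without Siglec-XII replicate 4 (exact permutation p = 0.0571). Siglec-XII replicates 1 and 2 had log2 ratios of 1.41 and 1.19, above all controls (0.87 to 1.02), while replicates 3 and 4 lay within the range of the controls.

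**Figure D2:**
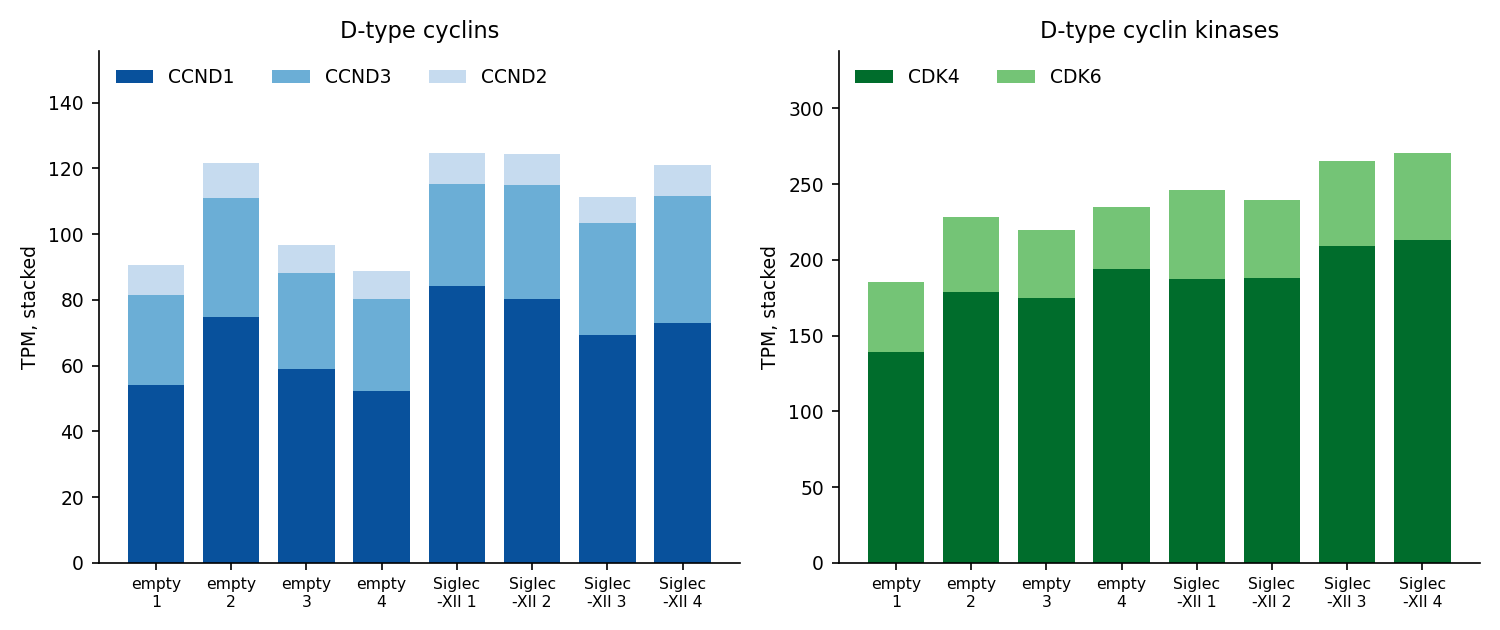
Stacked TPM (y axes) of the D-type cyclins (left) and of CDK4 and CDK6 (right) in each of the 8 samples (x axes), labelled by group and replicate. The cyclin sum of empty vector replicate 2, 121.5 TPM, reaches the range of the Siglec-XII samples (111 to 125 TPM), whereas all 4 kinase sums with Siglec-XII (239.7 TPM or more) exceed the controls (235 TPM or less).

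CDK6 had the second smallest p-value of the 10 genes. Its levels were 46.4, 49.5, 44.7 and 41.3 TPM in empty vector samples and 59.0, 51.9, 55.5 and 57.4 TPM in Siglec-XII samples. The groups did not overlap, the means were 45.5 ± 3.45 and 56.0 ± 3.05 TPM, and the log2 difference was 0.30 (limma, SE 0.07, 95% interval 0.15 to 0.44, adjusted p = 0.0978). Removal of the length trend lowered the difference of CDK6, whose transcript of 11612 bases is the longest of the set, to 0.173 (limma adjusted p = 0.253). CDK4, the closely related kinase, was the most abundant member, at 139, 179, 175 and 194 TPM against 187, 188, 209 and 213 TPM. Empty vector replicate 1 was far below the rest, and replicate 4 lay above 2 of the Siglec-XII samples. The log2 difference of CDK4 was 0.22 (limma, SE 0.10, 95% interval 0.01 to 0.44, adjusted p = 0.290) and 0.13 without empty vector replicate 1. That library also had the highest mitochondrial share, 11.2% of TPM against 6.67% to 9.97% in the others, and the part of this in its CDK4 level was not tested. The sum of both kinases was 217 ± 21.9 TPM in controls and 255 ± 14.7 TPM with Siglec-XII, with every Siglec-XII sample above every control. The gap was narrow, with a lowest Siglec-XII value of 239.7 TPM and a highest control value of 234.9 TPM. Whether the groups stay apart under the other scalings was not tested for this sum. CDK6 made up 21.2 ± 3.09% and 21.95 ± 1.37% of that sum. The log2 ratio of CDK6 to CDK4 differed by 0.07 between the groups (two-sided exact permutation test, p = 0.714), and its sign turned when empty vector replicate 4 was left out.

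The INK4 genes CDKN2B and CDKN2A lie side by side on the minus strand of chromosome 9, at chr9:22002902-22009304 and chr9:21967751-21995300 in GRCh37. CDKN2B was at 3.25, 3.32, 3.32 and 3.36 TPM in the empty vector samples and at 6.60, 6.81, 4.81 and 5.69 TPM in the Siglec-XII samples. The controls were nearly equal, the Siglec-XII samples spread more widely, and the groups were well apart. The log2 difference was 0.68 (limma, SE 0.11, 95% interval 0.43 to 0.94, adjusted p = 0.0315), and CDKN2B ranked 73 by p among all tested entries. At such a low level the added 1 TPM shrinks the difference, which was 0.82 with 0.1 added instead. The call depended on the settings. The adjusted p ranged from 0.0177 to 0.127 over 18 alternatives and stayed under 0.05 in 6 of them, while the difference stayed between 0.60 and 0.82. Leaving out any single library other than Siglec-XII replicate 3 put the adjusted p between 0.0501 and 0.109.

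CDKN2A was the member with the most negative difference. It had 29.1, 28.0, 23.9 and 29.1 TPM in empty vector samples and 23.8, 25.0, 25.7 and 23.6 TPM in Siglec-XII samples. Empty vector replicate 3 lay among the Siglec-XII samples, and the other 3 controls lay above all of them. The log2 difference was -0.16 (limma, SE 0.07, 95% interval -0.32 to 0.01, adjusted p = 0.327). The entry of CDKN2A names a transcript of 978 bases. Whether its value also counts other transcripts of the gene is not given in the sources used here. CDKN2A passed an unadjusted p of 0.05 in limma after quantile normalization, with equal upper quartiles, without the mitochondrial and most abundant entries, after removal of the length trend and without empty vector replicate 3, always with the lower level in Siglec-XII samples. The sum of both genes was 30.8 ± 2.50 TPM in controls and 30.5 ± 1.06 TPM with Siglec-XII, and the share of CDKN2B in it was 10.8 ± 0.963% and 19.6 ± 2.73%. Within a sample, the log2 ratio of CDKN2B to CDKN2A was -2.82, -2.74, -2.53 and -2.79 in controls and -1.71, -1.74, -2.20 and -1.88 with Siglec-XII. The groups did not overlap and differed by 0.84 (two-sided exact permutation test, p = 0.0286, the smallest possible). This ratio was chosen after the levels of both genes had been seen, so its p is no independent support.

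**Figure D3:**
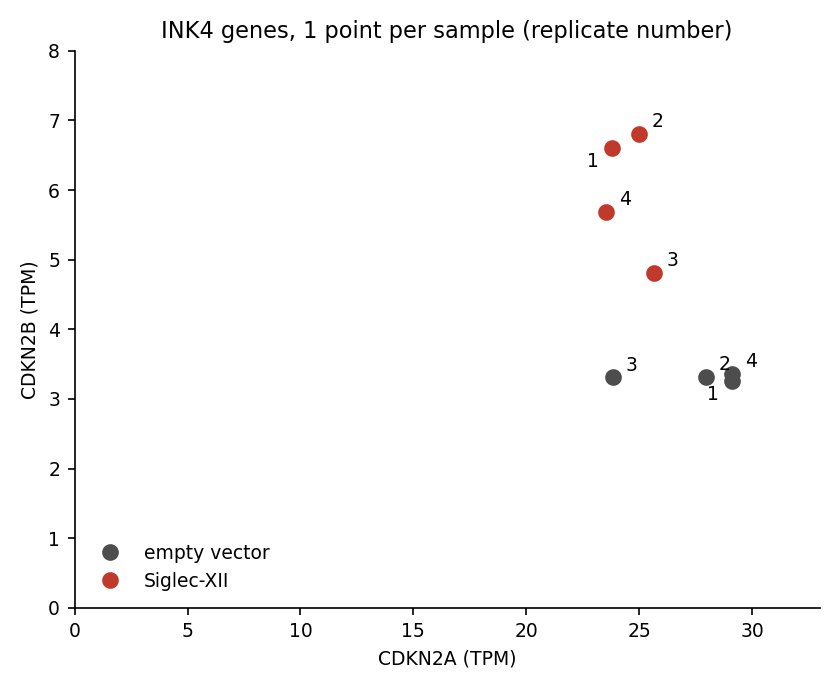
CDKN2B (y axis, TPM) against CDKN2A (x axis, TPM), 1 point per sample with its replicate number, empty vector in grey and Siglec-XII in red. CDKN2B separates the groups, at most 3.36 TPM in controls and at least 4.81 TPM with Siglec-XII, while empty vector replicate 3, at 23.9 TPM of CDKN2A, falls among the Siglec-XII samples on the x axis.

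The INK4 genes arose from a common ancestor, and a read that lies wholly within a stretch they share fits both. Of the 948 stretches of 31 bases in the CDKN2A transcript named by the table, 65 (6.86%) also stood in that of CDKN2B, where they were 1.7% of 3823. The part of these shared stretches in the levels of the pair was not tested.

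The bases just upstream of both INK4 genes are given because the neighbours had differences of opposite sign, and those of CCND1 because it had the largest difference among the cyclins. Each sequence is the 250 bases before the start of the transcript named by the table, read 5′ to 3′ on the gene's strand from GRCh37, at chr9:22009305-22009554 for CDKN2B, chr9:21974857-21975106 for CDKN2A and chr11:69455674-69455923 for CCND1. Capitals mark the GC box GGGCGG, to which Sp1 family factors bind, or the E2F-type letters TTTGGCG, on either strand.
CDKN2B: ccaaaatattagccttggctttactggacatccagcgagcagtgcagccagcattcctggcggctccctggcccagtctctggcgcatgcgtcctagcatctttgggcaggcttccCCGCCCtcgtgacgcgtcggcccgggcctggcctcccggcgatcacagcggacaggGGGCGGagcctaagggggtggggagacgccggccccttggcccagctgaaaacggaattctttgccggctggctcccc
CDKN2A: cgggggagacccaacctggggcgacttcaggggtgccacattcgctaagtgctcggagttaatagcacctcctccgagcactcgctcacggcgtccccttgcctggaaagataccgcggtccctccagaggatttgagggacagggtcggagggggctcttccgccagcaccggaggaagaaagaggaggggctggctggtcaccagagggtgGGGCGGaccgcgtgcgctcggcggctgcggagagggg
CCND1: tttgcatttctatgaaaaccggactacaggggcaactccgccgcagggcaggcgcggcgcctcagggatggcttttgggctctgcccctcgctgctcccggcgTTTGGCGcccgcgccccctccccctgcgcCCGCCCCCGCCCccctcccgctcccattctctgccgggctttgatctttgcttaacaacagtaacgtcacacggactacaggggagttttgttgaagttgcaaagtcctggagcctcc
CDKN2B held the GC box at 134 and 78 bases before the transcript start, CDKN2A at 37, and CCND1 at 118 and 112, side by side, besides TTTGGCG at 147. Over 20176 promoters of protein-coding genes of the same length, 48.7% held the GC box at least once, 28% at least 2 times, and 1.68% held TTTGGCG. A second E2F form, TTTCGCG (1.37% of promoters), the AP-1 letters TGACTCA (3.34%), TGACGTC (3.5%) and TATAAA (10.1%) were also searched on both strands and do not stand in these 3 windows, and no searched motif overlapped another there. GC content was 66.4% for CDKN2B, 66.8% for CDKN2A and 63.6% for CCND1, against a median of 59.6% over all promoters. The window of CDKN2A lies inside the annotated gene, since other transcripts of the gene start farther upstream.

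Of the other transcripts of the INK4 region, MTAP alone reached the level for testing. MTAP, an enzyme gene of methionine salvage and the far neighbour of CDKN2A, had means of 21.3 ± 1.59 and 22.3 ± 1.247 TPM, a log2 difference of 0.06 (limma, adjusted p = 0.693). CDKN2B-AS1, the long noncoding RNA that runs antisense through CDKN2B, was under 1 TPM in every sample (0.124 to 0.938 TPM) and was not tested. Of 8 genes of Polycomb complexes and their partners, which are known to silence this locus, 6 had a positive and 2 a negative difference, none passed the adjusted threshold in limma, and 2 passed an unadjusted p of 0.05 upward, where 68.1% of all tested entries were positive and 13.9% passed upward. These were KDM2B, a histone demethylase of a Polycomb complex, at 20.9 ± 0.991 and 25.3 ± 1.04 TPM (log2 difference 0.26, limma adjusted p = 0.0978), and BMI1, at 116 ± 4.76 and 132.5 ± 15.3 TPM (0.18, adjusted p = 0.290). EZH2, the methyltransferase, had 36.3 and 36.2 TPM.

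CDKN1B did not pass the test and had a small difference. It had 45.2, 42.7, 46.2 and 46.2 TPM in empty vector samples and 46.5, 41.5, 45.3 and 38.9 TPM in Siglec-XII samples, with overlap throughout. The log2 difference was -0.07 (limma, SE 0.06, 95% interval -0.21 to 0.08, adjusted p = 0.644), so the data do not exclude a difference of up to 0.21 downward. The entry of CDKN1B names a noncoding transcript of 453 bases, and whether its value counts that transcript or the whole gene is not given in the sources used here.

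Downstream of these kinases, RB1 was at 20.4, 21.3, 20.6 and 21.3 TPM in empty vector samples and at 24.8, 22.4, 23.9 and 23.4 TPM in Siglec-XII samples. The groups did not overlap, although the means, 20.9 ± 0.482 and 23.6 ± 1.01 TPM, were close, and the log2 difference was 0.17 (limma, SE 0.05, 95% interval 0.05 to 0.29, adjusted p = 0.189). Removal of the length trend lowered it to 0.08. CCNE1, cyclin E1, had 59.1, 62.2, 65.0 and 68.4 TPM against 73.8, 67.5, 66.7 and 67.9 TPM. Only Siglec-XII replicate 1 lay above all controls, and the log2 difference was 0.11 (limma, SE 0.06, 95% interval -0.02 to 0.24, adjusted p = 0.356).

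**Figure D4:**
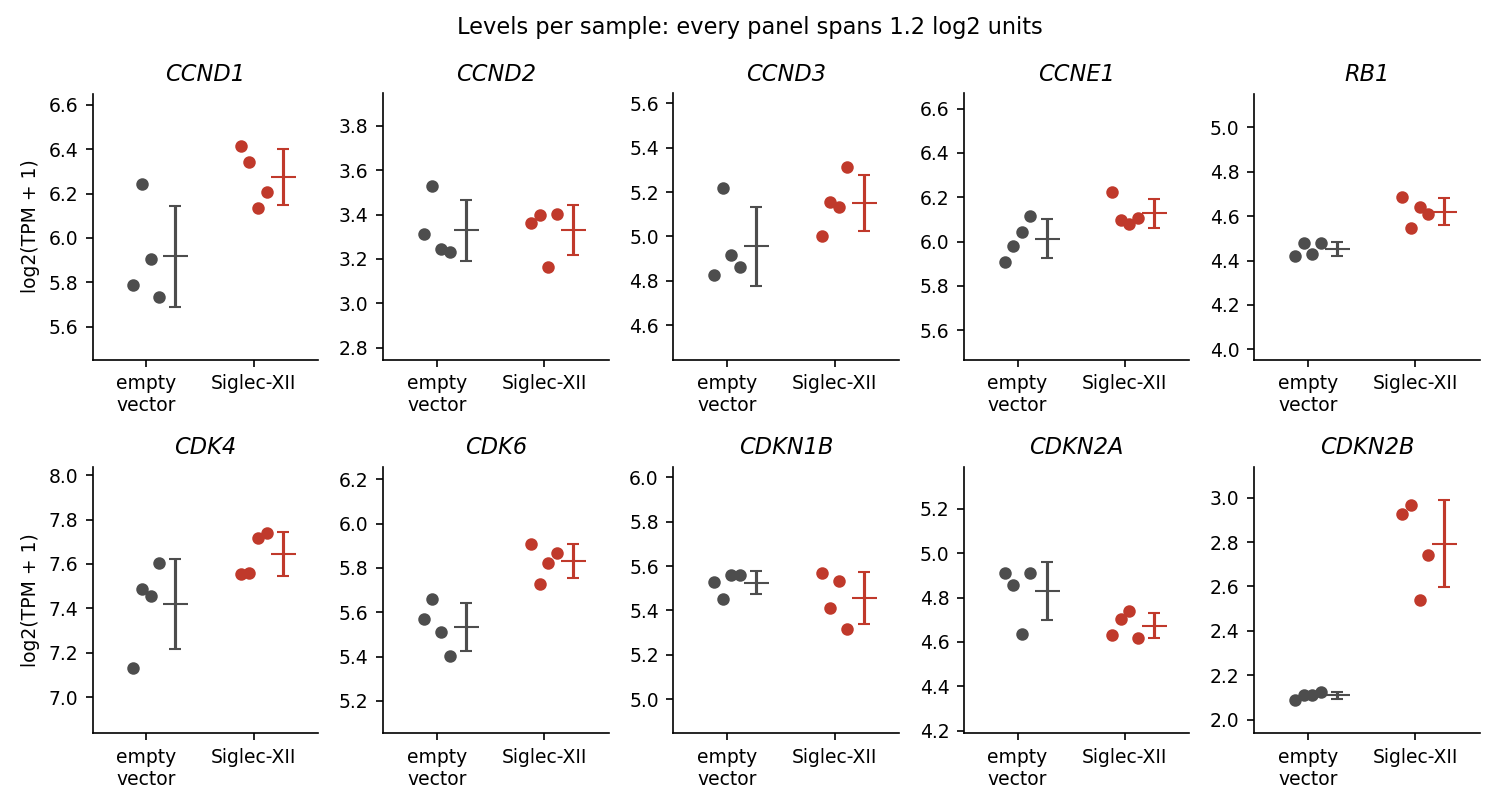
Levels of the 10 genes as log2(TPM + 1) (y axes, each spanning the same distance on the log2 scale) in the 4 empty vector (grey) and 4 Siglec-XII samples (red), with the group mean and SD beside the points. CDKN2B, CDK6 and RB1 show no overlap between the groups, and empty vector replicate 2, the second grey point of each panel, is the highest control for all 3 D-type cyclins.

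The members are ordered here by mean TPM over all 8 samples. CDK4 was highest, at 139 to 213 TPM, above every other member in every sample. CCND1 and CCNE1 followed with overlapping ranges, and CCND1 was the higher in 5 of 8 samples. CDK6 and CDKN1B came next and also overlapped (CDK6 higher in 6 of 8). CCND3, CDKN2A and RB1 came after, and each overlapped the next. CCND2 (7.95 to 10.6 TPM) stood above CDKN2B (3.25 to 6.81 TPM) in 8 of 8 samples, and the smallest value of CCND2 was above the largest of CDKN2B. The gaps between CCNE1 and CDK6 and between CDKN1B and CCND3 were narrow, with a lowest value of 59.1 against a highest of 59.0 TPM and of 38.9 against 38.7 TPM.

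Some of these values rest on transcripts that share bases with other genes. In the CDK4 transcript, 990 stretches of 31 bases stood on the opposite strand of TSPAN31 transcripts (54% of those in CDK4), and 9.43% was shared with transcripts on its own strand, led by SLC35E3. Without a statement that strand was used in counting, reads of CDK4 and TSPAN31 that lie wholly within shared bases cannot be told apart. TSPAN31 had 29.9 ± 5.21 and 30.5 ± 4.06 TPM, a log2 difference of 0.03 (limma, adjusted p = 0.928). CCND1 had 10.6% of its stretches on the opposite strand of other transcripts, mostly LTO1, whose log2 difference was also 0.03 (limma, adjusted p = 0.806). CCND2 shared 15% with an unnamed gene, ENSG00000285901, on its own strand. The transcripts named for CCNE1, CDKN1B and RB1 shared none. For CDKN1B this covers only the noncoding transcript of 453 bases, and its other transcripts were not searched.

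The gene pattern nearest to that of CCND1 over the 8 samples was sought among 12071 protein-coding entries, with the members left out. By Pearson's r of log2(TPM + 1), TDRKH came first (r = 0.984), then ADM (0.976) and ZNF805 (0.972), and after the group means were taken out the values were 0.966, 0.971 and 0.946. ADM encodes adrenomedullin, a vasodilator peptide, and TDRKH a Tudor domain protein of the piRNA pathway. All 3 had a positive difference of 0.10 to 0.37 that did not pass the adjusted threshold in limma, and the samples share their scaling to a fixed total. These r values were picked as the highest of 12071 over only 8 samples, so their size is no support for shared control with CCND1.

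Around the 10 genes, no list of the pathway held an entry past an adjusted p of 0.05 in limma, and counts at an unadjusted p of 0.05 are given instead. Over all tested entries, 68.1% had a positive difference, 13.9% passed that limit upward and 2.61% downward. Of the 12 other G1/S cyclin, kinase and inhibitor genes 11 were tested, CDKN2C lying under 1 TPM, and 6 had a positive and 5 a negative difference (median 0.04), with 1 passing upward and 1 downward. CDC25A, the phosphatase that activates CDK2, was at 49.2 ± 3.32 and 60.3 ± 3.23 TPM (log2 difference 0.29, limma adjusted p = 0.0860), in groups without overlap. CCNH, the cyclin of the kinase that activates other CDKs, was at 32.1 ± 1.54 and 29.1 ± 1.40 TPM (-0.14, adjusted p = 0.274). CDK2 itself had 102 ± 7.33 and 105 ± 6.71 TPM, and CDKN1A, which encodes p21, 3.29 ± 0.973 and 3.71 ± 0.579 TPM.

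Genes that set the turnover of the cyclins and of p27 had a median difference of 0.17, with 8 of 10 positive and 5 of 10 past an unadjusted p of 0.05 upward (68.1% and 13.9% of all entries). Those 5 were FBXW7, the ubiquitin ligase subunit for cyclin E, SKP2, the subunit for p27, AMBRA1, the subunit for D-type cyclins, GSK3B, a kinase that marks cyclin D1 for removal, and FBXO31, another ligase subunit for cyclin D1. FBXW7 was at 4.65 ± 0.06 and 4.99 ± 0.19 on the log2(TPM + 1) scale (difference 0.34, limma adjusted p = 0.136). SKP2 was at 122 ± 12.1 and 143 ± 2.45 TPM (0.23, adjusted p = 0.149). Groups did not overlap for these and for FBXO31, and did for AMBRA1 and GSK3B. The named transcripts were long for FBXW7 (5653 bases), GSK3B (7743), FBXO31 (5953) and AMBRA1 (5023), but not for SKP2 (1537). The part of transcript length in these differences and counts was not tested.

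Of 10 E2F and DP factors, 9 were tested, 7 were positive, and 3 passed an unadjusted p of 0.05 upward, namely E2F3, E2F6 and E2F8 (median of the list 0.12), against 68.1% positive and 13.9% upward over all entries. E2F1, the classical partner of the retinoblastoma protein, had 22.2 ± 2.24 and 21.7 ± 0.867 TPM. Among 19 E2F target genes, 16 were positive, 6 passed upward and 0 downward (68.1%, 13.9% and 2.61% of all entries), and the median was 0.11. MCM2, a subunit of the replicative helicase, was at 143 ± 11.1 and 173 ± 6.15 TPM (log2 difference 0.27, limma adjusted p = 0.0966), and MCM7, from the same complex, at 119 ± 2.59 and 135 ± 5.56 TPM (0.18, adjusted p = 0.109). Other target genes lay level, such as PCNA at 288 and 288 TPM and MCM3 at 134 and 134 TPM, and CCNA2, cyclin A2, had 93.8 and 89.3 TPM.

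ERK output genes other than CCND1 were read because the D-type cyclins respond to this pathway. Of 12 genes, 9 were positive (median 0.13), 3 passed an unadjusted p of 0.05 upward and 1 downward (68.1%, 13.9% and 2.61% of all entries). SPRY2, a feedback inhibitor, was at 5.72 ± 0.488 and 7.33 ± 0.455 TPM (log2 difference 0.31, limma adjusted p = 0.147) in groups without overlap. DUSP5 and DUSP6, phosphatases that act on ERK, had differences of 0.29 and 0.27. EGR1, an immediate early factor, had the opposite sign, at 15.2 ± 2.83 and 11.5 ± 1.48 TPM (-0.36, adjusted p = 0.231). For comparison, the median over all tested entries was 0.07.

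**Figure D5:**
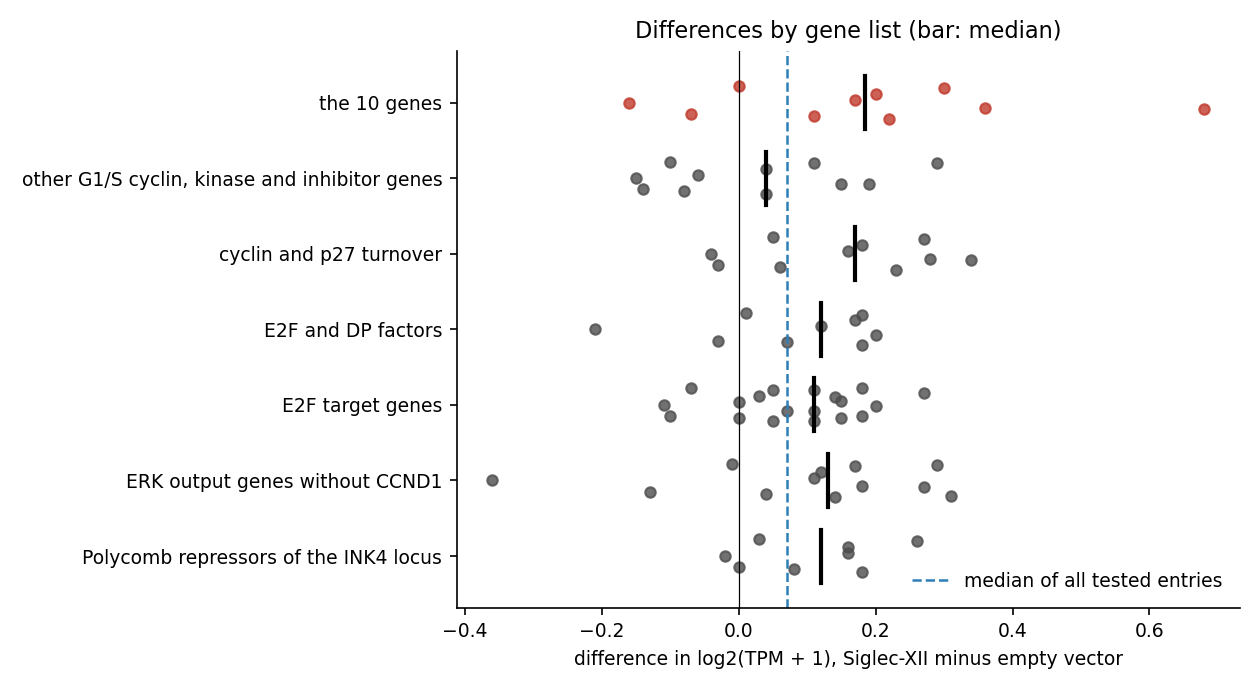
Difference in mean log2(TPM + 1), Siglec-XII minus empty vector (x axis), for each tested gene of the 10 members (red) and of 6 pathway lists (grey), 1 row per list, with black bars for list medians and the dashed line for the median of all tested entries, 0.07. Most lists centre between 0.04 and 0.17, and CDKN2B, at 0.68, lies farther to the right than any other gene shown.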

How the data were processed

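Libraries of 8 samples were sequenced, with a depth per sample not recorded in the table. The authors quantified reads with kallisto (version 0.45.0 per the submitters' processing notes) on hg19 and deposited log2 of TPM plus 1 per gene entry; each column summed to 1000000 TPM once taken off the log scale. The labels name a total RNA kit and the methods an mRNA kit. Values were used as deposited. The test between groups was limma 3.58.1, run in R 4.3.3 (lmFit, eBayes with a mean-variance trend, Benjamini-Hochberg over all 15590 entries at 1 TPM or more in at least 4 samples). It was tried first on simulated independent samples with planted differences larger than that of any member. That trial did not cover differences as small as those of the members, or technical libraries. Single ratios were tested by two-sided exact permutation tests. Fold sizes refer to log2(TPM + 1), which understates changes at low levels. Positions, transcripts and sequences came from GRCh37 and GENCODE v44 lifted to it, matched by transcript ID. Members, lists, markers and the naming rule (the members, the lists, and the 3 entries nearest to CCND1) were chosen with earlier results of these data known. CCND2-AS2 was not analysed here. Of the remaining neighbours (MTAP, CDKN2B-AS1, CDKN2A-DT, DMRTA1, CCND2-AS1, LTO1, FGF19, URI1, TSPAN31 and MARCHF9), 5 were tested, all 5 with positive differences and 0 past an unadjusted p of 0.05. Alternatives covered the pseudocount, the filter, the scaling, the variance model, a replicate block and each library left out.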

Additional observations from a re-analysis of the deposited data

Results flagged for a closer look

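CCND2 in Siglec-XII replicate 3 lay apart from the rest of its group, at 3.16 on the log2(TPM + 1) scale (7.95 TPM) against 3.36, 3.40 and 3.40 in the other replicates. Its gap to the nearest of them was 0.839 of the range of the group, beyond Dixon's critical value for 4 samples. With 22 groups of values checked, about 1 in 20 is flagged by chance.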

How the results depend on the processing

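CDKN2B kept a positive log2 difference in every alternative in which it was tested. Its adjusted p was 0.105 (difference 0.685) with no filter, 0.0542 (0.635) with equal upper quartiles, 0.0503 (0.689) without the mitochondrial and 100 most abundant entries, 0.0698 (0.601) with the length trend removed and 0.127 (0.685) with the replicate number as a block. With one library left out, its difference ranged from 0.627 to 0.769. A mean of at least 5 TPM removed CDKN2B from the tested entries. Accordingly 0 of the 10 genes passed under these 6 settings, and 0 to 1 with one library left out. Entries past an adjusted p of 0.05 numbered 101, and 51 with no filter, 39 without small structured RNAs, 54 without the mean-variance trend and 49 to 159 with one library left out (49 without empty vector replicate 3, 159 without replicate 2). Of the calls, 52.5% were higher with Siglec-XII, but 32.6% after quantile normalization, 29.3% with equal upper quartiles, 34.2% without the most abundant entries, 25.6% with the length trend removed, 26.1% with the block (18 of 69), 41.2% with no filter and 42.6% without the mean-variance trend. The share was 64.1% without small structured RNAs, and it ranged from 27.6% to 69.8% with one library left out (69.8%, 111 of 159, without empty vector replicate 2). Same-numbered samples did not deviate together (correlations -0.074 to 0.059), so the numbers were not taken as pairs. The sign of CCND2 turned to -0.063 with quantile normalization, -0.0538 with equal upper quartiles, -0.038 without the most abundant entries and -0.103 with the length trend removed, and with one library left out it ranged from -0.0304 to 0.0683. The ratio of CDK6 to CDK4 ranged from -0.0342 to 0.179 with one library left out, and that of CCND1 to CCND3 from 0.0663 to 0.239. The causes were not tested. The other 8 genes kept their sign in all 19 alternatives. Depth is unknown, so counting error at low levels such as that of CDKN2B cannot be given.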
